A study of Mus musculus with 2 samples.

Results

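H3K36me2 is the dimethylated form of lysine 36 on histone H3, and a small set of enzymes and binding proteins writes, removes and reads methylation at this residue. NSD1, NSD2, NSD3 and ASH1L add up to 2 methyl groups, while SETD2 makes the trimethylated form over transcribed gene bodies. KDM2A and KDM2B are demethylases of lower methylation states that also bind CpG-rich DNA, KDM4A removes methyl groups from trimethylated lysine 36 and lysine 9, and the DNA methyltransferases DNMT3A and DNMT3B bind methylated lysine 36 through a PWWP domain. The 10 genes encoding these proteins, Nsd1, Nsd2, Nsd3, Ash1l, Setd2, Kdm2a, Kdm2b, Kdm4a, Dnmt3a and Dnmt3b, were taken by name from the gene column of the H3K36me2 peak lists, in which 18187 genes were named in all. They accounted for 10 of 19976 peaks in the control library and 10 of 23518 peaks in the library from mice with Nsd2 deleted in the intestinal epithelium. Peaks that lay in a member gene but were annotated to another gene were listed as well.

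The lists came from CUT&Tag, in which the transposase Tn5 is directed by an antibody to the chromatin carrying a mark. A single colon library was made from Nsd2 fl/fl mice, whose Nsd2 alleles are floxed but intact, and another from Nsd2ΔIE mice, in which Villin-Cre deletes the gene in the intestinal epithelium. According to the methods the animals were male littermates on C57BL/6J, 7 to 8 weeks old at the start, and mice of both genotypes received a high-fat and high-cholesterol diet (HFCD), for 18 weeks by the methods and 16 weeks by the deposited design text. Whole colon tissue was used, so cells in which Villin-Cre is not active were present in both libraries, and how many animals each library held was not given in the sources used here. With 1 library per genotype, the differences below have no replicate check and were not tested. Peaks had been called separately in each library, with lower limits of the summed signal of 21783 in Nsd2 fl/fl and 16571 in Nsd2ΔIE and median widths of 4643 bp and 3426 bp, and the read depth behind them is unknown. Summed signal was therefore ranked only within its own list. A histone peak is not a level of RNA or protein, and neither the loss of NSD2 nor the cell makeup of the tissue could be read from the lists. Of the marker genes of colon epithelium, 3 of 8 had an annotated peak in Nsd2 fl/fl and 5 of 8 in Nsd2ΔIE. For immune markers it was 1 and 2 of 4, and for stromal and muscle markers 2 and 2 of 6. Over all protein-coding genes the shares were 30.9% and 32.9%. The peaks assigned to Epcam and Des in Nsd2ΔIE and to Vim in Nsd2 fl/fl lay outside those genes.

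By the annotated gene, 6 of the 10 members had a peak in Nsd2 fl/fl, namely Nsd1, Nsd3, Kdm2a, Kdm2b, Dnmt3a and Dnmt3b. In Nsd2ΔIE, 5 members had a peak, namely Nsd1, Nsd2, Setd2, Kdm2b and Dnmt3a. Nsd1, Kdm2b and Dnmt3a were thus in both lists, and Ash1l and Kdm4a in neither. Over all 21900 protein-coding genes, 30.9% had an annotated peak in Nsd2 fl/fl and 32.9% in Nsd2ΔIE. The members are long genes, each longer than 71.6% to 91.9% of coding genes, and among the 4457 coding genes in the same range of lengths the shares were 38.4% and 40.6%. The member peaks were not unusually strong. In summed signal, 5 of the 10 in Nsd2 fl/fl and 4 of the 10 in Nsd2ΔIE lay above the median of their list. Promoter peaks, which the authors' annotation extends 3 kb upstream and downstream of the transcription start site (TSS), made up 4 of the 10 peaks in Nsd2 fl/fl and 6 of the 10 in Nsd2ΔIE, against 32.1% and 27.9% of all peaks.

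Few of these peaks lay in the same place in both libraries. With an overlap of at least 1 bp, 1 of the 10 Nsd2 fl/fl member peaks met a Nsd2ΔIE peak, where 34.1% of all Nsd2 fl/fl peaks did. In the other direction it was also 1 of 10, where 30.7% of all Nsd2ΔIE peaks met a peak of the control. That single pair lay in Kdm2b. For the other members, a peak in both lists meant peaks at different sites of the gene.

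Which gene a peak is assigned to mattered for most of the members. The authors assigned each peak to the nearest TSS, so a peak in the body of a long gene can carry the name of a short gene nested in it or next to it. Of the exon and intron peaks for which the annotation also names the host gene, 47.6% in Nsd2 fl/fl and 47.5% in Nsd2ΔIE were assigned to another gene than that host. When peaks were counted for a member if they overlapped its listed span or lay in its exons or introns by that annotation, 17 Nsd2 fl/fl peaks and 12 Nsd2ΔIE peaks lay in members, of which 8 and 4 had been assigned to another gene. Peaks then lay in 8 members in Nsd2 fl/fl and in 6 in Nsd2ΔIE. By the same count, 30.8% and 31.9% of all coding genes held a peak, and 44.6% and 45.7% of those in the members' range of lengths. Kdm4a and Ash1l have no listed span. Those of Nsd2, Nsd3, Setd2, Kdm2a, Kdm2b and Dnmt3b are shorter than the genes in a GRCm38.p6 gene table. When peaks assigned to a gene nested in a member were added, and for Kdm4a those that fall in it by their distance from St3gal3 or Gm23382, the numbers were 21 and 13 peaks in 9 and 6 members. Ash1l was then the only member with a peak in neither library. Of the 21 and 13 peaks, 3 in each library overlapped across genotypes, in Kdm2b, Dnmt3a and Kdm4a. The peak positions along each gene are drawn in the map of peaks by distance from the TSS.

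**Figure D1:**
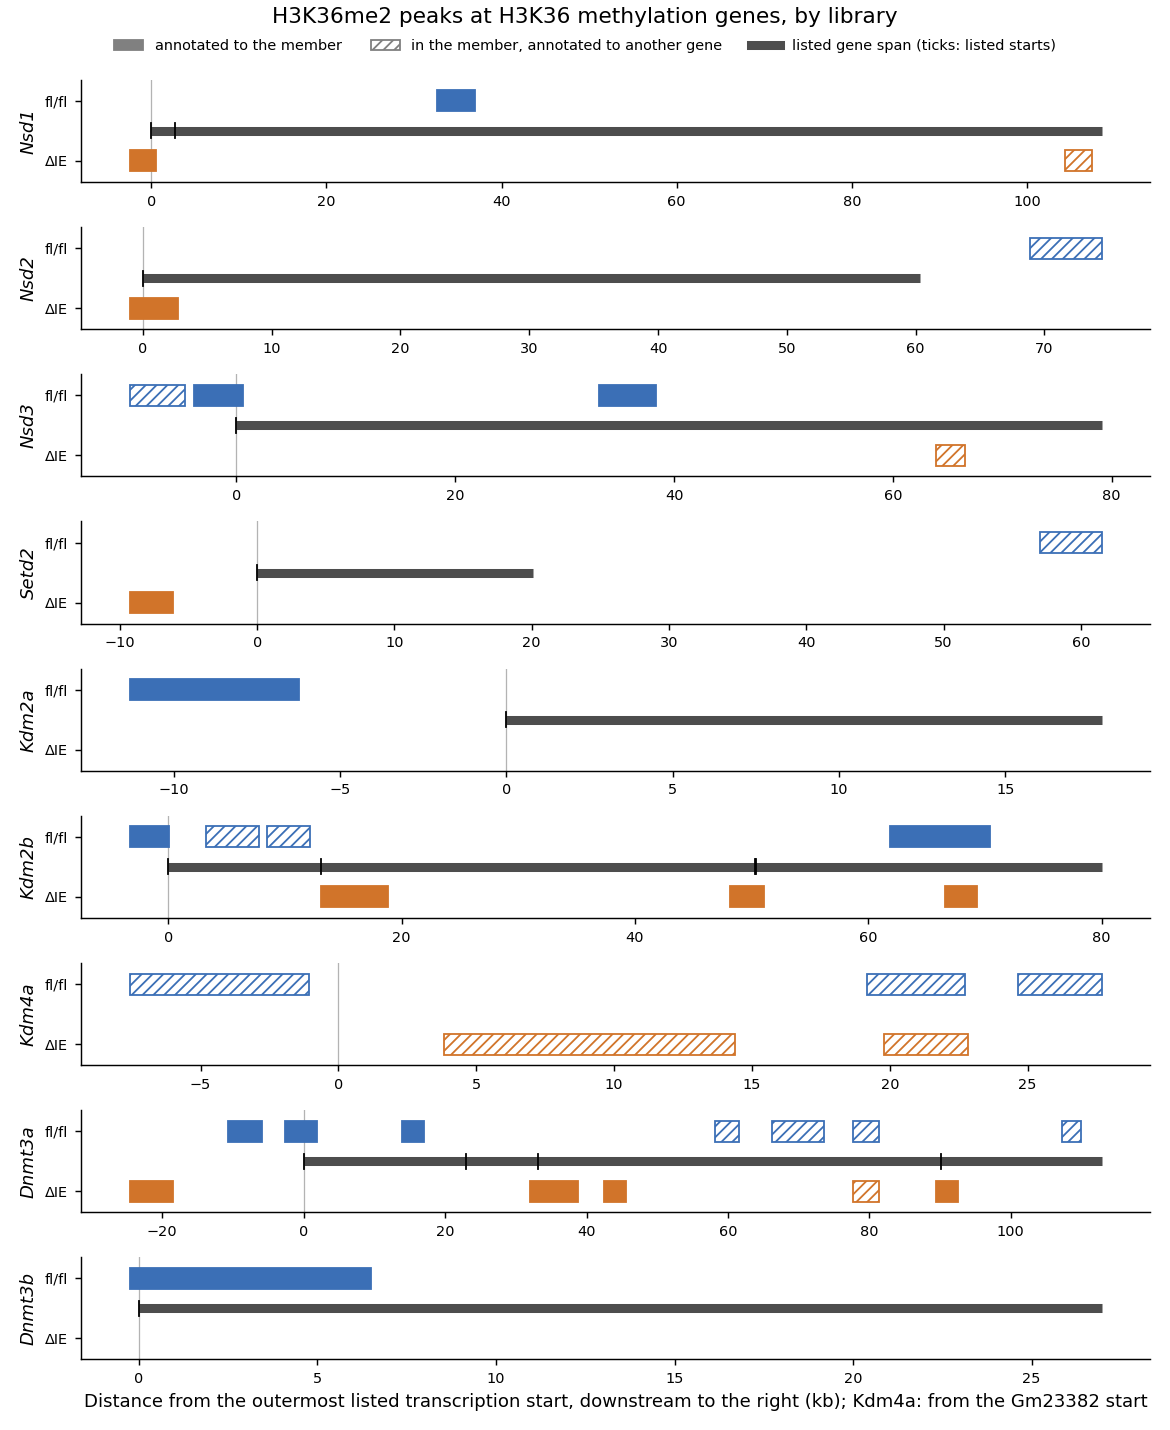
H3K36me2 peaks of 9 member genes, with Nsd2 fl/fl peaks above and Nsd2ΔIE peaks below the listed gene span (grey bar, with ticks at the listed TSSs); the x axis is the distance in kb from the outermost listed TSS, or from the start of Gm23382 for Kdm4a, which has no listed span. Filled peaks were annotated to the member and hatched ones to another gene (the Nsd3 peak at Gm24992 through a nested gene alone, and the Kdm4a peaks other than the Nsd2ΔIE peak of 10545 bp through distances to neighbouring genes), and Kdm2b, Dnmt3a and Kdm4a each have a pair in the same place. The listed spans of Nsd2, Nsd3, Setd2, Kdm2a, Kdm2b and Dnmt3b are shorter than the genes, so the bar is not the whole gene and peaks in other exons can fall outside it.

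Among the writers, Nsd2 is the gene deleted in the epithelium. Its only annotated peak was in the Nsd2ΔIE library, at the promoter, on chromosome 5 from 33973260 to 33977025. This peak of 3766 bp covered the TSS at 33974286, its highest signal lay 745 bp upstream of that TSS, and it was weak, exceeding 23.2% of its list in summed signal and 7.1% in signal per bp. In Nsd2 fl/fl no peak covered this promoter, and the nearest one was 68.8 kb from the TSS. That nearest peak, however, lay in exon 19 of 23 of Nsd2, from 34043128 to 34048744, and carried the name of Mir7024, whose TSS was 7571 bp away. It was 5617 bp wide and exceeded 64.9% of its list. Both libraries thus had 1 peak in Nsd2, near the listed start of the gene in Nsd2ΔIE and near its end in Nsd2 fl/fl, 66.1 kb apart. The place of the Nsd2ΔIE peak rests on the start of a single listed transcript, XM_006503661.5. The listed span of 60349 bp differs from the 77291 bp of the gene table, so its place relative to other Nsd2 starts was not determined. Just beyond the gene, at Mir7024, a peak from 34056037 to 34059138 in Nsd2 fl/fl overlapped one from 34056549 to 34059888 in Nsd2ΔIE.

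Nsd1 encodes the paralogue that also makes H3K36me2. In Nsd2 fl/fl its peak, from 55390179 to 55394600 on chromosome 13, was annotated as 5′ UTR and began 29887 bp downstream of a listed TSS. In Nsd2ΔIE the annotated peak lay at the promoter, from 55355120 to 55358163, over the TSS at 55357595 and 32.0 kb from the Nsd2 fl/fl peak. They exceeded 55.4% and 43.1% of their lists. A second Nsd2ΔIE peak, from 55461983 to 55464968, lay within the listed span of Nsd1 near its end but was assigned to the neighbouring gene Rab24. By annotated gene the called length of Nsd1 was 4422 bp in the control and 3044 bp in Nsd2ΔIE, a log2 ratio of Nsd2ΔIE to Nsd2 fl/fl of -0.54. With the Rab24 peak included it was 4422 bp and 6030 bp, a log2 ratio of 0.45, so the direction depended on that peak.

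At Nsd3, which encodes the remaining NSD enzyme, the Nsd2 fl/fl library had a promoter peak from 26126703 to 26131155 on chromosome 8, over the TSS at 26130593, and a peak annotated as 3′ UTR from 26163705 to 26168949, 33112 bp downstream. Another Nsd2 fl/fl peak, from 26120826 to 26125881, was assigned to the snoRNA gene Gm24992, which the gene table places inside Nsd3, and it lay upstream of the listed Nsd3 TSS. None of these met a Nsd2ΔIE peak. The only Nsd2ΔIE peak in the gene, from 26194545 to 26197165 in exon 19 of 23, was assigned to Plpp5 and lay near the lower limit of its list, exceeding 1.0% of it. The called length inside the listed span of Nsd3 was 9698 bp in the control and 2621 bp in Nsd2ΔIE, a log2 ratio of -1.89. With the Gm24992 peak the control length was 14754 bp and the log2 ratio -2.49, and the Nsd2ΔIE length was 0 by annotated gene.

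Setd2, the trimethylase gene, changed sides with the assignment. Its annotated peak was in Nsd2ΔIE, from 110352076 to 110355251 on chromosome 9, but this lay 6117 bp upstream of the listed Setd2 TSS and was labelled as the 3′ UTR of a gene that the annotation does not name. A peak inside Setd2 was present in Nsd2 fl/fl instead, in exon 14 of 22, from 110418389 to 110422904, assigned to Nradd at a distance of 30557 bp. Both were weak, exceeding 10.3% and 10.6% of their lists. Beyond the end of Setd2, where the gene table has Nradd as the next gene, the libraries did overlap. A broad Nsd2 fl/fl peak of 22.9 kb, stronger than 99.9% of its list, covered a Nsd2ΔIE peak of 6.8 kb, stronger than 97.8% of its list.

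No peak was found for Ash1l by annotated gene, host annotation or nested gene. It has no listed span and no neighbour that fixed its place by distance, so its position could not be searched directly. Neither snRNA or snoRNA gene nested in it, Gm26465 and Gm24403, had a peak, and of the adjoining coding genes Rusc1 had none and Dap3 had 1, in exon 3 of 12, in Nsd2ΔIE. Since the lists hold only regions above a limit, H3K36me2 at Ash1l below that limit was not detectable.

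Of the erasers, Kdm2b had the most peaks and the only overlapping annotated pair. The Nsd2 fl/fl peak, on chromosome 5 from 123018317 to 123026898 and annotated to exon 2 of 12 of the short transcript, was 8582 bp wide with a summed signal of 53083, stronger than 93.1% of its list. Within it lay the whole Nsd2ΔIE peak from 123019418 to 123022175, which was 2758 bp wide with a summed signal of 21857, stronger than 59.5% of its list. The places of highest signal in both were 183 bp apart, and the Nsd2ΔIE peak covered 32.1% of the control peak. This was a narrower call at the same site, in a list whose peaks were narrower in general, with a median width of 3426 bp against 4643 bp. The summed signals are not on a common scale and were not compared.

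At the listed Kdm2b start sites the libraries differed. The lists name TSSs of Kdm2b at 3 places. The outermost of these, at 123088751, was covered by a Nsd2 fl/fl peak from 123088652 to 123092074. The nearest Nsd2ΔIE peak was 13.1 kb away. The TSS of the short transcript NM_001378864.1, at 123038430, was covered by a Nsd2ΔIE peak from 123037689 to 123040570, and the nearest Nsd2 fl/fl peak was 11.5 kb away. Between them, at the TSS at 123075707, a strong Nsd2ΔIE peak from 123069949 to 123075651 ended 56 bp short of the TSS, on its downstream side. Upstream of it, with 968 bp between the libraries, began the first of a pair of Nsd2 fl/fl peaks, from 123076620 to 123080257 and from 123080977 to 123085516, which were assigned to the nested gene Gm33118. By annotated gene, Kdm2b had 12005 bp in the control and 11343 bp in Nsd2ΔIE, a log2 ratio of -0.08. With the Gm33118 peaks counted, it had 20183 bp and 11343 bp, a log2 ratio of -0.83.

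The promoter of the short Kdm2b transcript is shown because its start was covered by a peak in Nsd2ΔIE and not in Nsd2 fl/fl, and because KDM2B itself binds unmethylated CpG. The window is from RefSeq on GRCm38.p6, chr5:122900318-122900617 on the minus strand, running from 250 bases before the TSS to 50 bases after it, and it was matched to the listed transcript by the length from its start to the end of the gene. Capitals mark each CpG dinucleotide, which reads the same on both strands.
Kdm2b NM_001378864.1 promoter: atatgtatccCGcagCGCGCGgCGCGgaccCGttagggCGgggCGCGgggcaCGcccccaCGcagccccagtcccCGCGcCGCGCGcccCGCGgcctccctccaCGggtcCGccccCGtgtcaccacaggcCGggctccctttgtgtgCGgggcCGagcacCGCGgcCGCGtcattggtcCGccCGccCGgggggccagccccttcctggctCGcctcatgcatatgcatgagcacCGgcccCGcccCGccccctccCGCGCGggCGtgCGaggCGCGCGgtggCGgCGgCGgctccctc
It holds 47 CpG in 300 bases, more than 98.6% of the 32851 promoter windows of that length, whose median is 7. At least 1 CpG is held by 94.6% of all windows. The highest signal of the Nsd2ΔIE peak lay 648 bp upstream of this TSS, outside the window.

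Kdm2a, the paralogue, had a peak in Nsd2 fl/fl only, on chromosome 19 from 4390390 to 4395482, in exon 12 of 21. Its signal per bp was low, 4.49, which exceeded 3.1% of its list, and no Nsd2ΔIE peak lay within 41.3 kb of it. Downstream of the listed transcript, Nsd2 fl/fl peaks at Ankrd13d and Grk2 overlapped Nsd2ΔIE peaks.

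Kdm4a had no peak by annotated gene, although the peak that ranked highest in its own list of any member lay in it. In Nsd2ΔIE a peak of 10545 bp, on chromosome 4 from 118006891 to 118017435, lay in exon 11 of 22 of Kdm4a and was assigned to the pseudogene Gm23382. Its summed signal of 65812 was 3.97 times the lower limit of its list and stronger than 99.2% of it, through its width, since its signal per bp exceeded 47.3%. In Nsd2 fl/fl a peak assigned to the same pseudogene, from 118022358 to 118028850, began 4922 bp beyond the end of the Nsd2ΔIE peak, and it was stronger than 77.9% of its list. The annotation of this peak names no host. In the gene table Gm23382 lies in Kdm4a, 16012 bp from the 5′ end of that gene, and in the list the peak ended 7575 bp from the start of Gm23382 on that side.

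At the other end of Kdm4a, peaks assigned to St3gal3 lay in the gene by the same kind of reckoning. The gene table sets St3gal3 and Kdm4a 1984 bp apart, whereas a Nsd2 fl/fl peak from 117998567 to 118002087 and a Nsd2ΔIE peak from 117998436 to 118001499, both labelled as 3′ UTR, began 6398 bp and 6267 bp upstream of the St3gal3 TSS. These overlapped over most of their length and exceeded 58.9% and 78.4% of their lists. A further Nsd2 fl/fl peak, from 117993586 to 117996613, reached into Kdm4a on that reckoning. By exon annotation alone Kdm4a had a peak in Nsd2ΔIE only. With all of these peaks, its called length was 13042 bp in the control and 13609 bp in Nsd2ΔIE, a log2 ratio of 0.06. The reckoning takes distances from GRCm38.p6, and St3gal3 and Gm23382, each of equal length in both annotations, gave the same place.

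**Figure D2:**
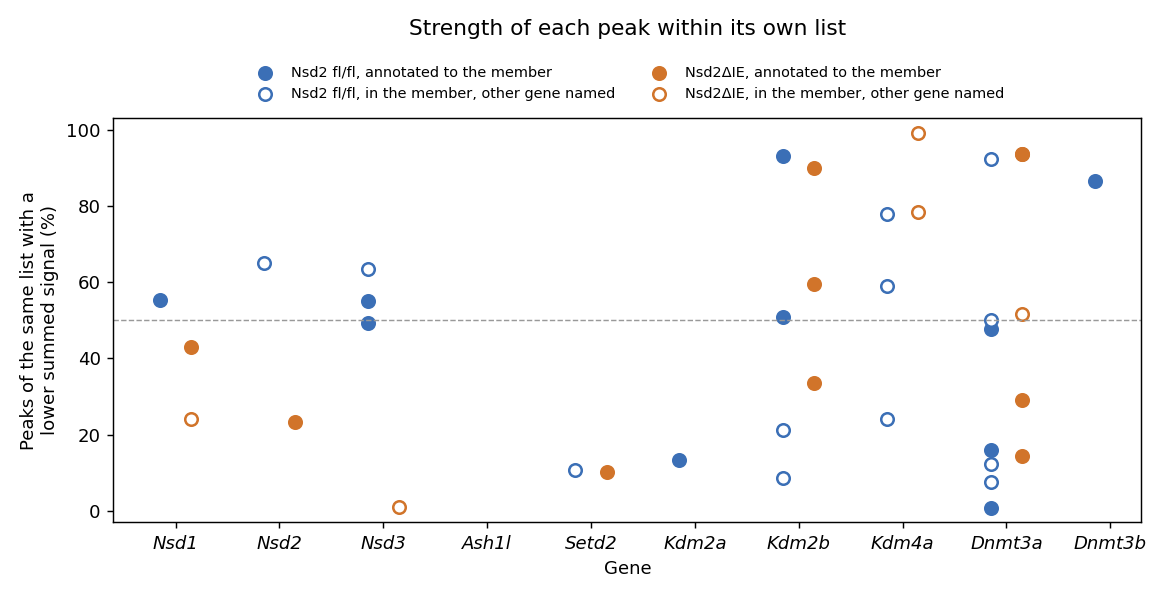
Summed signal of each peak as the share of peaks of the same list that were weaker (y axis, %; dashed line at 50), for peaks annotated to a member (filled) or lying in it under another gene's name (open), in Nsd2 fl/fl (blue) and Nsd2ΔIE (orange). The Kdm4a peak of Nsd2ΔIE stood highest at 99.2%, peaks in Kdm2b and Dnmt3a reached 93.1% and 92.4% in Nsd2 fl/fl, and both peaks of Setd2 lay at 10.3% and 10.6%; the 2 filled Dnmt3a points of Nsd2ΔIE at 93.5% coincide.

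Of the readers, Dnmt3a had the most peaks of all members, 3 in Nsd2 fl/fl and 4 in Nsd2ΔIE by annotated gene, and none of these overlapped. The lists name 4 TSSs of Dnmt3a on chromosome 12. The first, at 3851559, was covered by a Nsd2 fl/fl peak from 3848925 to 3853457, and the nearest Nsd2ΔIE peak was 18.5 kb away. The TSS at 3884750 was covered by a strong Nsd2ΔIE peak from 3883540 to 3890301, with 16.1 kb to the nearest Nsd2 fl/fl peak, and the TSS of the short transcript NM_153743.4, at 3941744, by a weaker Nsd2ΔIE peak from 3940990 to 3944026, with 8.9 kb to the nearest Nsd2 fl/fl peak. At 3874525 neither library had a peak. As in Kdm2b, the outermost listed start was thus covered in Nsd2 fl/fl and internal listed starts in Nsd2ΔIE. At Nsd1 the outermost listed start was covered in Nsd2ΔIE instead, with 32.6 kb to the nearest Nsd2 fl/fl peak. The only listed start was covered in Nsd2ΔIE for Nsd2, in Nsd2 fl/fl for Nsd3 and Dnmt3b, and in neither for Setd2 and Kdm2a. A TSS is listed only where a peak of either library was assigned to it, so other starts were not compared. The listed span of Kdm2b, 80025 bp, is shorter than the gene of 118607 bp in the gene table. The short Kdm2b transcript, matched by length, reaches the end of the gene in both, so the missing part lies on the 5′ side. By the gene table, the outermost listed start of Kdm2b is therefore itself internal to the gene.

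Further annotated Dnmt3a peaks lay in intron 1 of 22 in Nsd2 fl/fl, from 3865470 to 3868610 and exceeding 0.7% of the list, and in intron 2 of 22 in Nsd2ΔIE, from 3894098 to 3897124. Another of each library lay outside the gene. The one of Nsd2 fl/fl, from 3840889 to 3845642, was distal intergenic. The one of Nsd2ΔIE, from 3826939 to 3833079, was stronger than 93.5% of its list and lay within Dtnb, which the list places from 3622984 to 3834070, 18480 bp upstream of the nearest Dnmt3a TSS.

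The body of Dnmt3a held 5 more peaks under other names, 4 in Nsd2 fl/fl and 1 in Nsd2ΔIE. A Nsd2 fl/fl peak from 3917833 to 3925176, in exon 5 of 23, was assigned to the antisense gene Dnmt3aos. It was 7344 bp wide with a summed signal of 51561, stronger than 92.4% of its list. Another Dnmt3aos peak lay at the start of that gene, from 3909768 to 3913077. The nested gene Gm31623 carried a pair with the same first base, from 3929201 to 3932854 in the control and from 3929201 to 3932927 in Nsd2ΔIE, so that their ends were 73 bp apart, although the places of highest signal were 973 bp apart. The last, a Nsd2 fl/fl peak from 3958812 to 3961548 near the end of Dnmt3a, had 9.95 units of signal per bp, more than 99.3% of its list. Transcripts on opposite strands cannot be told apart by a histone mark.

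For Dnmt3a the direction turned with the assignment. By annotated gene its called length was 12428 bp in the control and 18967 bp in Nsd2ΔIE, a log2 ratio of 0.61. Inside the gene it was 24719 bp and 16553 bp, a log2 ratio of -0.58. Counting only the bases within the listed span, peaks covered 19.6% of Dnmt3a in Nsd2 fl/fl and 14.7% in Nsd2ΔIE, against 21.1% and 14.2% of Kdm2b.

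The start of the short Dnmt3a transcript is shown as another internal start with a peak in Nsd2ΔIE and none in Nsd2 fl/fl. The RefSeq window on GRCm38.p6 is chr12:3891494-3891793 on the plus strand, matched to the list in the same way, with each CpG in capitals.
Dnmt3a NM_153743.4 promoter: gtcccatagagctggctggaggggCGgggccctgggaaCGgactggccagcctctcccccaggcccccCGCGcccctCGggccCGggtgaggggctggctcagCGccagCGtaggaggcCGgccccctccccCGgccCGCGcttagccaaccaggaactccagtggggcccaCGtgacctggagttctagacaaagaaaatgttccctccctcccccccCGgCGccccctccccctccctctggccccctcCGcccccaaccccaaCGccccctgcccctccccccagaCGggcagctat
It holds 18 CpG, more than 70.3% of all windows, and so fewer than the Kdm2b window above. The highest signal of the peak lay 1319 bp downstream of this TSS. Promoter windows were found for 5 members, Dnmt3a, Dnmt3b, Kdm2b, Kdm4a and Setd2, in 10 windows with 13 to 49 CpG each, of which these 2 could be matched to a listed transcript.

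Dnmt3b had 1 peak, in Nsd2 fl/fl only, on chromosome 2 from 153502420 to 153509194. It was 6775 bp wide and stronger than 86.4% of its list, and its highest signal lay 72 bp downstream of the listed TSS at 153502682. It was the peak closest in its summit to a listed member TSS. It covered 24.2% of the listed span, which at 26969 bp is shorter than the gene of 38320 bp in the gene table. No Nsd2ΔIE peak lay inside the listed span of Dnmt3b, and the nearest was 33.8 kb from the listed TSS, at Commd7. Unlike for Dnmt3a, no peak of another gene's name lay in the listed span of Dnmt3b, and its called length was 6775 bp in the control and 0 in Nsd2ΔIE under both assignments.

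Called length per gene was compared with a limit of 0.5 on the log2 ratio, and genes found in a single list were counted as having more in that library. By annotated gene, 4 members had less length in Nsd2ΔIE (Nsd1, Nsd3, Kdm2a and Dnmt3b), 3 had more (Nsd2, Setd2 and Dnmt3a) and Kdm2b was similar. Ash1l and Kdm4a had no annotated peak and were in none of these groups. Of all 18187 genes with a peak, 43.3% had less and 39.7% had more. By peaks lying in the gene, nested genes and distances to neighbours included, 7 members had less (Nsd2, Nsd3, Setd2, Kdm2a, Kdm2b, Dnmt3a and Dnmt3b), 0 had more, and Nsd1 and Kdm4a were similar. With listed spans and host annotations alone, Kdm4a counted as having more. Over the 11928 genes with a peak inside by listed span or host, 46.3% had less and 35.2% had more. The class of 6 of the 10 members differed between the assignments. Nsd3, Kdm2a and Dnmt3b had less length in Nsd2ΔIE under both. Peaks were on the whole narrower in Nsd2ΔIE, with a median log2 ratio of called length inside genes of -0.37 over 5684 genes with peaks in both libraries. Relative to this median, 4 members had less length (Nsd3, Setd2, Kdm2a and Dnmt3b), 1 had more (Nsd1), and Nsd2, Kdm2b, Kdm4a and Dnmt3a were similar. Setd2, Kdm2a and Dnmt3b had 0 bp inside the gene in Nsd2ΔIE, so they counted as less whatever the median. By annotated gene, 3 had less and 3 had more relative to the median of that count. The shares of all genes above were not taken relative to a median.

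**Figure D3:**
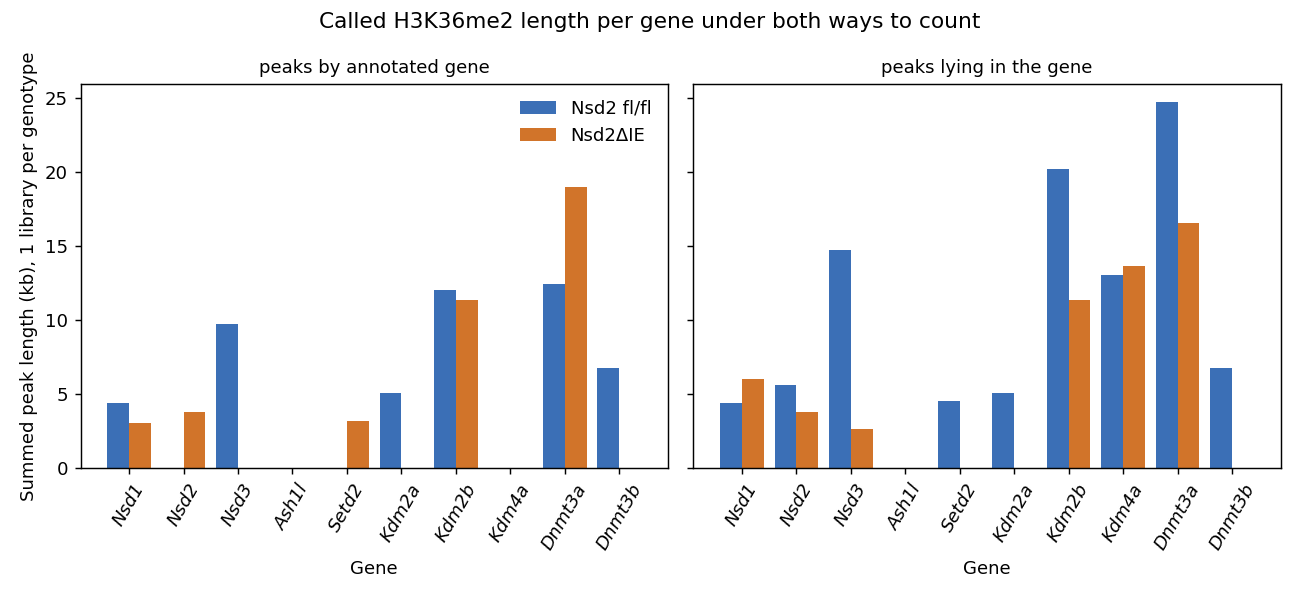
Summed peak length in kb (y axis) of each member in Nsd2 fl/fl (blue) and Nsd2ΔIE (orange), from peaks annotated to the gene (left) and from peaks lying in it (right: by listed span, host annotation, nested gene or distance from a neighbour), with 1 library per genotype and so no error bars. Nsd2, Setd2 and Dnmt3a are higher in Nsd2ΔIE on the left and lower on the right, Nsd1 goes the opposite way, and Kdm4a appears on the right only, at nearly equal heights.

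A list of 24 further H3K36 genes gave a mixture of the same kind. By annotated gene, 10 had a peak in Nsd2 fl/fl, 12 in Nsd2ΔIE, 8 in both and 10 in neither. Over all protein-coding genes, 30.9% and 32.9% had an annotated peak. Among those with a peak in either library, called length was lower in Nsd2ΔIE for 7, higher for 5 and similar for 2. Of all 18187 genes with a peak, it was lower for 43.3% and higher for 39.7%. By peaks inside the gene, Brpf1 and Dnmt1 turned from higher to lower. Kdm4b and Glyr1, from lower, and Pwwp2b, from higher, became similar. Among the writers, Smyd2, which encodes a lysine methyltransferase, had 6 peaks over 31348 bp in Nsd2 fl/fl and 1 peak of 2896 bp in Nsd2ΔIE, a log2 ratio of -3.44, while Setmar and Prdm9 had none. It had the largest difference of the list, also inside the gene with a log2 ratio of -2.98. The demethylase genes Kdm4b and Kdm8 had log2 ratios of -1.30 and -0.64, and for Kdm4b the ratio inside the gene was -0.38.

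Among readers and associated factors, Supt6, which encodes an elongation factor, went from 5498 bp to 2404 bp, and Glyr1, whose product binds trimethylated lysine 36, from 5740 bp to 2510 bp, each a log2 ratio of -1.19. For Glyr1 the ratio inside the gene was -0.01. Hdgfl2 and Zmynd11, both encoding PWWP proteins, were similar with log2 ratios of 0.11 and 0.30. Pwwp2b was higher in Nsd2ΔIE with a log2 ratio of 0.92 by annotated gene, and -0.09 inside the gene. Of the 7870 genes with annotated peaks in both libraries, 60.7% had a peak of Nsd2 fl/fl that overlapped a Nsd2ΔIE peak of the same gene. In the list this held for 7 of the 8 such genes, all but Supt6, and among the members for Kdm2b alone of 3. These counts are small and were not tested.

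**Figure D4:**
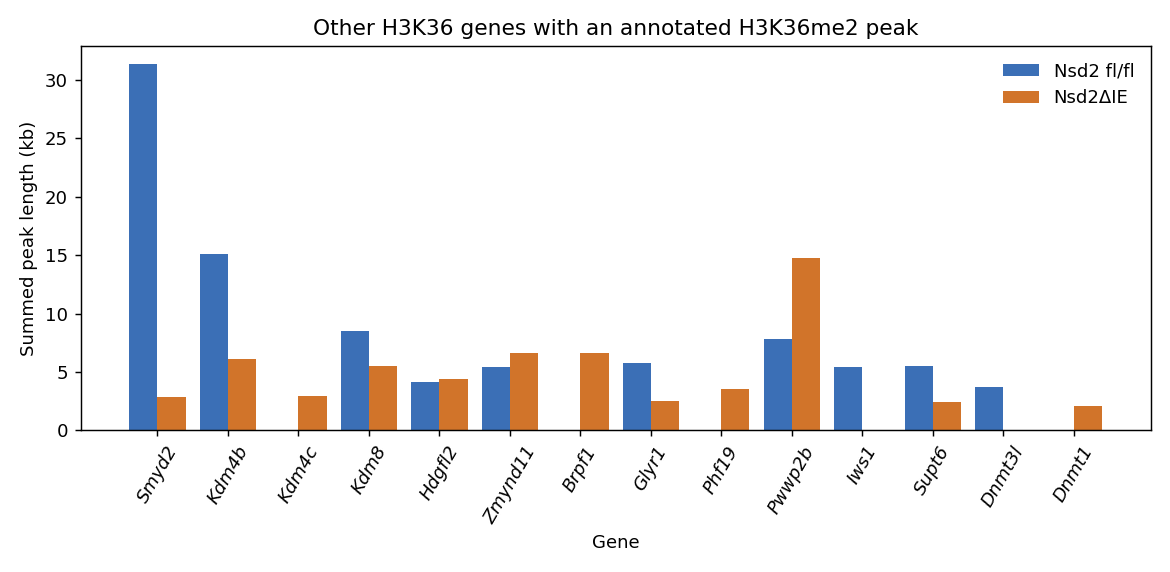
Summed length in kb (y axis) of the peaks annotated to the 14 of 24 further H3K36 genes that had a peak in either library, Nsd2 fl/fl in blue and Nsd2ΔIE in orange, 1 library each. Smyd2 stands out with 31348 bp against 2896 bp, and Pwwp2b is the gene with peaks in both libraries that is most clearly higher in Nsd2ΔIE.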

How the data were processed

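The data were H3K36me2 peak lists from CUT&Tag, 1 colon library for either genotype. The submitters' processing notes name Bowtie2, deepTools, SEACR and ChIPseeker, without versions, and the build hg38, although the coordinates and gene names are of mouse. The authors deposited, for each peak, its position, width, summed signal, nearest gene, transcript and feature; no scaling of the signal to depth is stated. Of 21892 listed transcripts compared with a GRCm38.p6 gene table through their gene, 9615 had the same length as the gene and 199 of these the same start, so the build is another one. Coordinates were therefore kept as listed, counted from 1, and none was converted for printing. The interval in each peak name was read as its place of highest signal, as SEACR writes it.

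Members were found by gene name, by overlap with the listed span, or by the host gene in the exon or intron annotation; the last was added after the data were seen, as were peaks of nested genes and, for Kdm4a, distances from neighbouring genes in the gene table. All members and every peak in them were named by rule, and of the further H3K36 genes those with a peak in both libraries. Members and lists were chosen with earlier results of these data known. Widths were summed per gene, with a log2 limit of 0.5, and overlaps of at least 1 bp were found with bedtools 2.31.1, in Python 3.11.15 with pandas 2.3.3 and numpy 2.4.6. The functions for overlap, reciprocal overlap, distance, class of length and peaks inside genes were tested on simulated data. Placement through nested genes and neighbours, the 1 kb window, the promoter matching and the flanks were not. With 1 library per genotype no test was made.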

Additional observations from a re-analysis of the deposited data

How the results depend on the processing

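By annotated gene, the number of members with less called length in Nsd2ΔIE was 4, and it was 2 with promoter peaks only. The number with more was 3, and it was 1 with peaks overlapping the listed span, with equal numbers of peaks per list, or with the strongest 50% of each list. That last choice left 2 members with a Nsd2ΔIE peak in place of 5. Counting peaks inside genes by position or annotation, an alternative chosen after seeing the data, gave 7 with less and 1 with more, also with equal numbers of peaks, and adding nested genes and distances from neighbours, also chosen after seeing the data, gave 7 and 0. Of the member peaks that met the other library, 1 in each, 0 were left under a reciprocal overlap of 50%, and within 1 kb 2 Nsd2ΔIE peaks were met. The difference in called length, Nsd2ΔIE minus Nsd2 fl/fl, turned for Nsd1 from -1378 bp to 3044 bp with promoter peaks only and to 1608 bp inside the listed span, with or without the host annotation. Inside the gene it turned for Nsd2 from 3766 bp to -1851 bp, for Setd2 from 3176 bp to -4516 bp and for Dnmt3a from 6539 bp to -8166 bp, the last with the listed span alone as well. These turns inside the gene were the same with nested genes and distances added. Peaks change gene under these alternatives, whereas promoter peaks only drops the Nsd1 peak in the 5′ UTR. Of 84 values under alternatives, 45 stayed in their class or within 1.5 times. No paired analysis was possible because only 1 library was made for either genotype. Depth is unknown, and regions below the limit of a list cannot be seen.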

Other observations

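Peaks around the members, within 50 kb on either side and outside them, overlapped between the libraries more often in number than peaks inside them. Of 12 Nsd2 fl/fl peaks in these flanks, 8 (66.7%) met a Nsd2ΔIE peak. Of 20 Nsd2ΔIE peaks, 10 (50%) met a Nsd2 fl/fl peak. Inside the members it was 3 of 21 and 3 of 13, with nested genes and distances from neighbours included. Over all peaks the shares were 34.1% in Nsd2 fl/fl and 30.7% in Nsd2ΔIE. The flanks held peaks assigned to Setd2 and Dnmt3a that lay outside their listed spans, none of which met a peak of the other library. The flanks were examined after the positions of the member peaks had been seen, neighbouring peaks are not independent, and the difference was not tested. The flanking pairs included those at Mir7024 beyond Nsd2, at Nradd and Nbeal2 beyond Setd2, at Plpp5 beyond Nsd3, at Ankrd13d and Grk2 beside Kdm2a, and at Mir7226 beside Kdm4a. At Nsd1, Dnmt3a and Dnmt3b no flanking peak met one of the other library.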
